A study of Zea mays with 28 samples.

Results

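Chromatin immunoprecipitation with an antibody against ZmDDM1B was compared between wild-type (WT) embryos and embryos labelled zmddm1b, in which the gene of the antigen is mutated. The 4 libraries, 2 of each genotype, are taken from the 28 of the series and were chosen by antibody and genotype. Both genotypes are developing embryos of the maize inbred line W22, harvested from field-grown plants 18 days after pollination with no special treatment, and the antibody was made in the laboratory of the authors. The labels do not describe the zmddm1b allele, and they number the libraries as replicates without saying whether these came from separate plants, so a p-value here reflects how far the libraries of a genotype lie apart, possibly for technical reasons only. Each library has 1 deposited list of peaks, with positions on B73 RefGen_v4, a genome assembly from a different inbred, and the 4 lists hold 112504 peaks. A WT region is a merged stretch that holds a peak of both WT replicates. A region was called kept where it shared at least 1 bp with a peak of either zmddm1b library and lost where it did not, so lost means not called and not an absence of signal.

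ZmDDM1B is a maize homologue of DDM1, a SNF2-type remodeller that moves nucleosomes and is best known from Arabidopsis, where it is needed to keep transposable elements methylated and silent. Maize carries a second homologue, ZmDDM1A. In maize, RNA-directed DNA methylation, in which ZmAGO4 carries the guiding small RNAs, acts mostly in the stretches that flank genes. The comparison asks which calls of the antibody depend on the gene of its antigen. The fold of a peak is the ratio of ChIP coverage to background at the summit, and it is the value the authors deposited.

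In WT embryos 56570 peaks were listed in replicate 1 and 53298 in replicate 2. In zmddm1b embryos 1870 and 766 were listed. All WT lists were thus longer than all zmddm1b lists, by 28.5-fold to 73.9-fold, and the zmddm1b lists differed more from each other in proportion than the WT lists did, but less in number of peaks (SD 781 against 2314, n = 2 each). On the log2 scale the mean difference was −5.52 (zmddm1b minus WT), and the exact permutation test gave p = 0.333 (n = 2 against 2, two-sided), the smallest value that this design allows. The depth worked out from the peak values was 13.8 and 12.8 reads per kb for WT and 9.92 and 10.8 for zmddm1b. The zmddm1b values are depths after scaling of the coverage, so they do not tell how deeply these libraries were sequenced. When the WT summits were scaled down to the lower of the zmddm1b values, 51047 and 48780 WT peaks still passed, which is 37.9-fold more than the zmddm1b mean.

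The zmddm1b peaks were narrow. The median width was 381 bp in WT replicate 1 and 403 bp in WT replicate 2, against 290 and 272 bp in the zmddm1b replicates, and the groups did not overlap (log2 difference −0.48, exact permutation p = 0.333, n = 2 against 2, two-sided). The widest zmddm1b peaks reached 890 and 1151 bp, and the widest WT peaks 4166 and 4719 bp. The median fold was 4.35 and 4.36 in WT and 4.29 and 4.72 in zmddm1b, 1 library below and 1 above both WT values, so the groups overlapped (exact permutation p = 1, n = 2 against 2, two-sided). The upper end of the lists differed, with a highest fold of 26.8 and 27.7 in WT and 16.3 and 13.2 in zmddm1b. Cut to the length of the shortest list by q-value, the WT lists had the higher median fold, with a log2 difference of −1.05 (zmddm1b minus WT). Both comparisons favour the longer WT lists. A longer list has more peaks from which to reach a high value, and the cut leaves only the most significant small part of it.

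**Figure D1:**
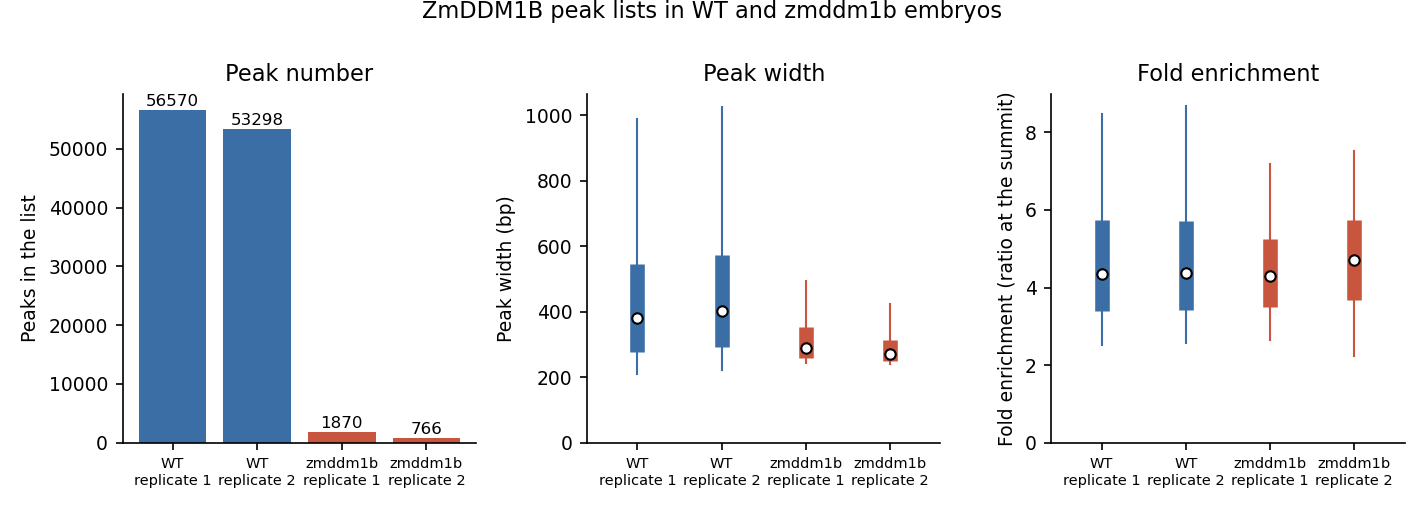
Number, width (bp) and fold enrichment of the peaks in each of the 4 ZmDDM1B lists. In the width and fold panels the open circle is the median, the thick bar runs from the 25th to the 75th and the thin line from the 5th to the 95th percentile of peaks; zmddm1b lists are short and their peaks narrow, with median folds of 4.29 and 4.72 beside 4.35 and 4.36 in WT.

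The WT libraries shared 42450 regions, which covered 25.4 Mb. Of these, 41280 were lost and 1170 were kept, which is 2.76% of all WT regions (95% interval 2.60 to 2.92). Replicate 1 of zmddm1b met 1100 of them (2.59%) and replicate 2 met 201 (0.473%). Both zmddm1b libraries met 131 regions (0.309%), so 969 of the kept regions rested on replicate 1 alone and 70 on replicate 2 alone. Counting only WT regions that zmddm1b peaks covered to at least 50% left 547 kept regions.

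Kept regions were stronger and wider in WT than lost ones. The median WT fold was 6.87 in kept against 4.67 in lost regions in replicate 1, and 6.75 against 4.61 in replicate 2, a log2 difference of 0.55 ± 0.0044 (SD, n = 2 WT replicates). Both WT values rest on the same regions and the same kept and lost classes. This SD therefore leaves out the spread between the zmddm1b libraries. WT pileup at the summit, the number of overlapping fragments, differed more than the fold, with medians of 101.5 against 50.0 in replicate 1 and 90.0 against 44.0 in replicate 2. The median background at the same summits was 13.0 against 10.2 and 11.1 against 9.25. Median region width was 693 bp in kept and 506 bp in lost regions (log2 difference 0.45). The 131 regions met by both zmddm1b libraries had a median width of 609 bp and those met by replicate 2 alone 471.5 bp. In the middle one of 3 equal groups by fold, the log2 width difference was 0.071, and in the middle one of 3 equal groups by width the log2 fold difference was 0.50. When at least 50% of a region had to be covered, the width difference turned to −0.10. Without zmddm1b replicate 1 it was 0.14, and the fold difference 0.44.

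The share kept rose steeply with strength in the upper groups, and its lowest value lay below the middle. WT regions were placed in 10 equal groups of 4245 by the smaller of the WT folds. The kept share was 1.11% in the weakest group (95% interval 0.815 to 1.47) and 0.730% in the third (0.497 to 1.03), and these intervals overlap. From there it went to 1.25% in the sixth, 2.92% in the eighth, 5.47% in the ninth and 10.98% in the strongest. By WT pileup the contrast was steeper: 0.589% in the fourth group, 3.82% in the ninth and 15.5% in the highest (95% interval 14.4 to 16.6). By width the share was 2.19% among the narrowest regions, 1.20% in the third group and 7.07% among the widest. The narrow end stood out more in replicate 2, where 0.919% of the narrowest and 0.872% of the widest regions were met, against 1.86% and 6.78% in replicate 1. Regions both strong and wide were kept most often: in the highest of 3 equal groups by both measures 618 of 6814 were kept (9.07%), against 15 of 2938 (0.511%) of regions in the highest group by width and the lowest by fold. No more than a minority was kept even at the top, with 168 of the 1000 strongest regions (16.8%, 95% interval 14.5 to 19.3) and 23 of the 100 strongest. Replicate 2 met 42 of those 1000 regions and 4 of those 100.

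**Figure D2:**
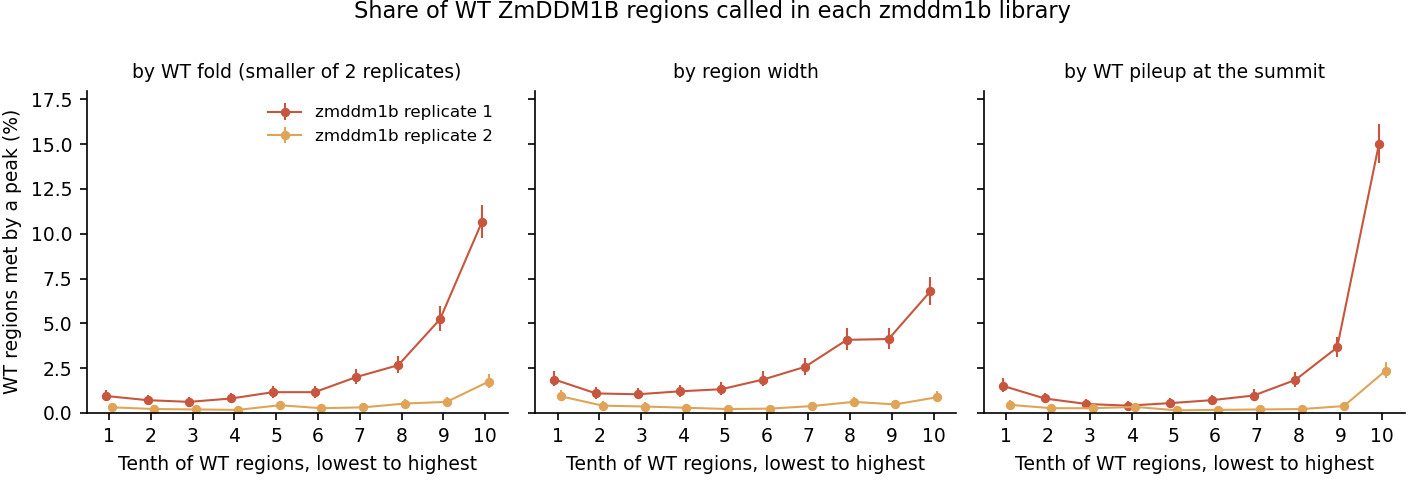
Percent of WT ZmDDM1B regions met by a peak of each zmddm1b library, in 10 equal groups of regions ordered by the smaller WT fold, by width and by the mean WT pileup at the summit. Bars are exact 95% intervals of the share; in replicate 1 the share goes up steeply in the last groups, and in replicate 2 it stays below 3% throughout.

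The kept share also differed by calls that the definition of kept and lost did not use, those of the WT lists of ZmDDM1A and ZmAGO4. Of the WT ZmDDM1B regions, 26365 were called in all 4 of these lists (2 per antibody), 2565 in none and 13520 in 1 to 3. Zmddm1b peaks met 880 regions of the first kind (3.34%, 95% interval 3.12 to 3.56), 197 of those called in no other list (7.68%, 6.68 to 8.78) and 93 of the intermediate kind (0.688%, 0.556 to 0.842). The order was the same in each zmddm1b library: replicate 1 met 3.22%, 6.43% and 0.629%, and replicate 2 met 0.402%, 2.81% and 0.170%. Regions called in no ZmDDM1A or ZmAGO4 list therefore made up 16.8% of the kept and 5.74% of the lost regions, and 30.5% of the 131 kept by both libraries.

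Kept regions of the all-list kind were wide and strong, with a median width of 794 bp and a median smaller WT fold of 6.53, against 556 bp and 4.49 in lost regions of that kind. Kept regions called in no other list were narrow, at 344 bp, and weaker, at a fold of 3.78, where lost regions of their kind had 379 bp and 3.18. Their median WT pileup was 32.0, against 104.75 in kept regions called in all lists. Zmddm1b peaks covered a median of 83.8% of the former and 41.7% of the latter. Chromosome ends also differed: 62.5% of the kept all-list regions lay in the first or last 20% of a chromosome (56.0% of the lost), against 47.7% of the kept regions called in no other list (58.7% of the lost).

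Within a band of similar WT fold the no-list regions were again met more often. At a smaller WT fold from 4 to 6, zmddm1b peaks met 67 of 521 no-list regions (12.9%, 95% interval 10.1 to 16.0), 278 of 11400 all-list regions (2.44%, 2.16 to 2.74) and 37 of 3686 others (1.00%, 0.708 to 1.38). At a fold from 3 to 4 the shares were 7.41%, 0.532% and 0.296%. These bands and the split by the other antibodies were chosen after the values had been seen.

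**Figure D3:**
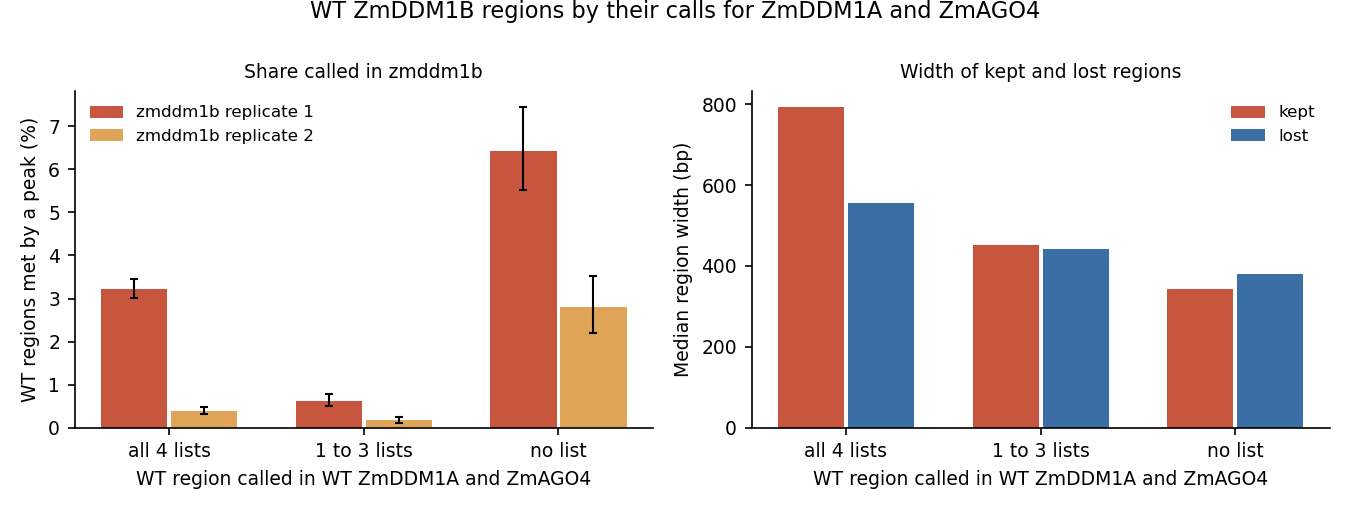
WT ZmDDM1B regions sorted by their calls in the 4 WT lists of ZmDDM1A and ZmAGO4: percent met by each zmddm1b library, with exact 95% intervals (left), and median width in bp of kept and lost regions (right). Regions in no other list were met most often (6.43% and 2.81%) and their kept members were narrow, while kept regions in all 4 lists had a median width of 794 bp.

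The folds that the authors list for the same place also separated these kinds. At the 850 all-list regions met by zmddm1b replicate 1 the median fold was 3.98 in that library and 7.42 in WT replicate 1. The zmddm1b value was the higher one in 44 of these regions (5.18%). At the 106 met by zmddm1b replicate 2 the medians were 4.21 and 7.98 in WT replicate 2, with 5 regions higher in zmddm1b. At the no-list regions the medians were close: 4.90 in zmddm1b and 4.32 in WT at 165 regions for replicate 1, and 4.93 and 4.84 at 72 regions for replicate 2. There the zmddm1b fold was the higher in 105 and 41 regions. The median of the ratio of zmddm1b to WT fold was 0.540 and 0.524 for all-list and 1.10 and 1.02 for no-list regions in replicates 1 and 2. A zmddm1b peak is listed only once it passes the caller, so low ratios cannot be seen at weak WT regions. In the band of WT folds from 4 to 6 the ratios were 0.631 and 0.800 for all-list and 1.01 and 1.00 for no-list regions. In the band from 3 to 4 they were 0.799 and 1.04 for all-list regions, the latter over 4 regions, and 1.13 and 1.17 for no-list regions. Fold also depends on the depth and input of each library.

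The summits of zmddm1b peaks lay close to those of WT. At the 131 regions met by both zmddm1b libraries the summits of zmddm1b replicate 1 were a median of 28 bp from those of WT replicate 1, and those of zmddm1b replicate 2 a median of 30 bp from those of WT replicate 2. The replicates of 1 genotype lay 25 bp apart at these regions, in WT as in zmddm1b. Over all 1100 regions met by zmddm1b replicate 1 the median distance to WT replicate 1 was 44 bp. The WT replicates lay closer, 30 bp apart at the 1170 kept regions and 36 bp apart over all 42450 regions.

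Of the strongest kept regions by zmddm1b fold, the first lay on chromosome 7 at 84206713 to 84207755. Its folds were 14.0 and 11.3 in WT and 15.0 and 13.2 in zmddm1b, so both genotypes had similar values. The next, on chromosome 5 at 221648968 to 221649759 near the chromosome end, had 13.6 and 23.5 in WT and 11.9 and 13.0 in zmddm1b. It stood on a high background of 27.8 and 16.6 in WT, was called in both ZmDDM1A lists of WT and both of zmddm1a, and in no ZmAGO4 list. The third, on chromosome 2 at 193756516 to 193756865, had 5.66 and 4.07 in WT and 11.7 and 10.7 in zmddm1b. The fourth, on chromosome 5 at 29806525 to 29806936, had 10.2 and 9.83 in WT and 16.3 and 9.32 in zmddm1b, and 16.3 was the highest fold of any zmddm1b peak. The fifth, on chromosome 5 at 73198722 to 73199029, had 5.16 and 8.88 in WT and 9.0 and 7.94 in zmddm1b. The third and the fifth were in no ZmDDM1A or ZmAGO4 list, as were 30.5% of the 131 regions met by both zmddm1b libraries. All 5 were picked for a high zmddm1b fold, which favours high zmddm1b values. Over the 131 regions the median folds were 7.19 and 6.92 in WT and 4.68 and 4.53 in zmddm1b. Nearby genes were not analysed here.

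Ranked by WT fold instead, 4 of the 5 leading kept regions had zmddm1b folds far below their WT folds. These were still at or above the median of the zmddm1b list. Each ranking favours high values of the fold it uses, so neither set of 5 measures a difference between genotypes. The strongest, at 157137360 to 157137765 of chromosome 8, reached folds of 15.8 and 17.4 in WT and 4.29 in zmddm1b replicate 1, and it was not called in replicate 2. On chromosome 7 at 181610937 to 181611494 the folds were 14.4 and 15.1 in WT and 6.89 in zmddm1b replicate 1. On chromosome 1 at 178718780 to 178719377 they were 14.1 and 17.2 in WT and 4.82 in that library. On chromosome 5 at 82133596 to 82134269 they were 13.0 and 17.3 in WT and 6.34 in that library. These 4 were called in all 4 ZmDDM1A and ZmAGO4 lists, as were 62.1% of all WT regions. In each of them the zmddm1b fold was below both WT folds. The remaining one of the first 5 is the region near the end of chromosome 5 described above.

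Among the 10 lost regions with the highest smaller WT fold, the first stood above every kept region. It lay on chromosome 3 from 12871812 to 12872233 and had 19.9 in replicate 1 and 19.1 in replicate 2, where the highest smaller WT fold of a kept region was 15.8. The smaller WT folds of the other 9 ran from 13.1 to 14.9, below that value. Ranks 6 to 10 lay on chromosome 2 from 56274984 to 56275585 (14.4 and 13.5), on chromosome 7 from 19289605 to 19290252 (14.9 and 13.4), on chromosome 3 from 148575960 to 148576593 (13.1 and 13.9), on chromosome 9 from 98186437 to 98187037 (15.1 and 13.1) and on chromosome 8 from 10381778 to 10382139 (13.1 and 13.2). All 10 were called in each of the 4 WT lists of ZmDDM1A and ZmAGO4, as were 61.7% of all lost regions. Lost regions of this kind were also the stronger ones. Their median smaller WT fold was 4.49, against 3.45 in lost regions called in 1 to 3 of these lists and 3.18 in none. Width alone did not separate lost from kept regions at the extreme: the widest lost regions, on chromosome 3 from 202423856 to 202428118 and on chromosome 1 from 299196702 to 299200910, spanned 4263 and 4209 bp. The widest kept one, on chromosome 1 from 39488232 to 39493072, spanned 4841 bp, of which zmddm1b peaks covered 6.65%.

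Seen from the mutant, the 2 zmddm1b lists had a different makeup. In replicate 1, 1114 of 1870 peaks lay in a WT region (59.6%, 95% interval 57.3 to 61.8), 283 in a peak of 1 WT replicate (15.1%) and 473 in no WT peak (25.3%). In replicate 2, 201 of 766 peaks lay in a WT region (26.2%, 23.2 to 29.5), 133 in a peak of 1 WT replicate (17.4%) and 432 in no WT peak (56.4%). The counts outside WT peaks were thus close, 473 and 432, while the counts inside WT regions were 1114 and 201. Of the replicate 2 peaks in WT regions, 131 (65.2%) met a peak of replicate 1, and of those in no WT peak 56 (13.0%) did. In the longer list of replicate 1, 131 of its peaks in WT regions (11.8%) and 57 of those in no WT peak (12.1%) met a peak of replicate 2. Replicate 2 had 201 peaks in WT regions, so only a small part of the 1114 of replicate 1 could meet one. The shares of the 2 lists therefore cannot be compared. Peaks near a WT region without touching it were few: 10 and 5 peaks lay within 1000 bp of one, and those in no WT peak lay a median of 32867 and 29811 bp away.

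Peaks inside WT regions were wider than those in no WT peak, stood on a higher background and had a lower fold. In replicate 1 the median width was 308 bp inside WT regions and 273 bp in no WT peak, and in replicate 2 it was 281 and 267 bp. The median fold was 4.06 inside against 4.58 outside in replicate 1 and 4.39 against 4.84 in replicate 2. Median background was 6.24 inside and 4.18 outside in replicate 1, and 6.21 and 4.38 in replicate 2. Peaks in a single WT replicate resembled those in no WT peak, with median widths of 274 and 277 bp and median folds of 4.85 and 4.74.

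In each zmddm1b list, calls of the other antibodies were common at peaks inside WT regions and less common at the rest. Among the 56 regions in no WT peak that both zmddm1b libraries called, 33.9% were in a WT ZmDDM1A list. Over all WT regions 85.1% were in a WT ZmDDM1A list and 84.9% in a WT ZmAGO4 list, so the shares inside WT regions were close to this level in replicate 1 and below it in replicate 2. In replicate 1, 83.2% of the peaks in WT regions were also in a WT ZmDDM1A list and 82.0% in a WT ZmAGO4 list. Of its peaks in no WT peak 4.44% and 2.96% were, and of those in a single WT replicate 2.83% and 3.89%. In replicate 2 the shares were 61.2% and 59.2% inside WT regions, 7.64% and 2.78% in no WT peak, and 13.5% and 3.01% in a single WT replicate. For comparison, WT peaks called in 1 WT replicate alone numbered 13091 and 10040, and 29.3% and 29.8% of them were in a ZmDDM1A list and 51.6% and 49.3% in a ZmAGO4 list. Zmddm1b peaks met 1.26% of those of WT replicate 1 and 2.04% of those of WT replicate 2.

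**Figure D4:**
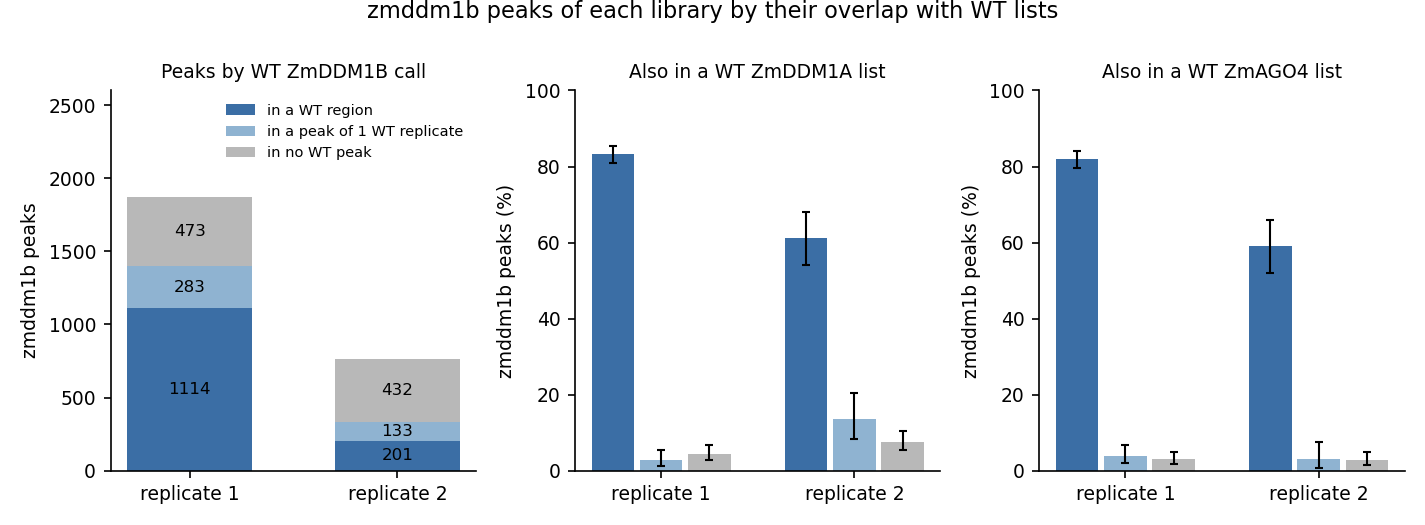
Peaks of each zmddm1b library by their overlap with WT ZmDDM1B lists (left, counts) and the percent of each class that is also in a WT ZmDDM1A (middle) or WT ZmAGO4 list (right), with exact 95% intervals. The classes have the same colours in all panels; peaks inside WT regions are near the level of all WT regions (85.1% and 84.9%) in replicate 1 and below it in replicate 2 (61.2% and 59.2%), and the other classes stay under 14%.

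Of the lost WT regions 55.5% lay in the first or last 20% of a chromosome, 40% of its length, and of the kept ones 59.4%. The kept share was the larger on 9 of 10 chromosomes, with chromosome 7 as the exception (51.5% of kept against 56.4% of lost). This small difference rested on zmddm1b replicate 1: without it the gap was 0.127 percentage points in place of 3.91, with zmddm1b regions of both libraries it was 0.131, and with the union of WT replicates 0.781. Zmddm1b peaks in WT regions had 59.5% and 55.7% in these outer parts in replicates 1 and 2. Zmddm1b peaks in no WT peak had 43.6% (95% interval 39.0 to 48.2) and 43.1% (38.3 to 47.9), so both intervals include the 40% of an even spread. The 56 regions in no WT peak that both zmddm1b libraries called went the other way, with 37 in the outer parts (66.1%), against 55.7% of the 131 in WT regions. Some of the 56 lay in a cluster near the end of chromosome 4, from 230000001 to 231000000. There 5 peaks of each library met the other list, on a median background of 84.3 and 63.5 over the peaks of that window. The part of such clusters in the 66.1% was not tested. Peaks in WT regions were the more distal on 10 of 10 chromosomes in replicate 1 and on 8 of 10 in replicate 2. Of the peaks in WT regions 9.96% and 7.46% lay in the central 20% of a chromosome, and of those in no WT peak 17.1% and 15.7% did.

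**Figure D5:**
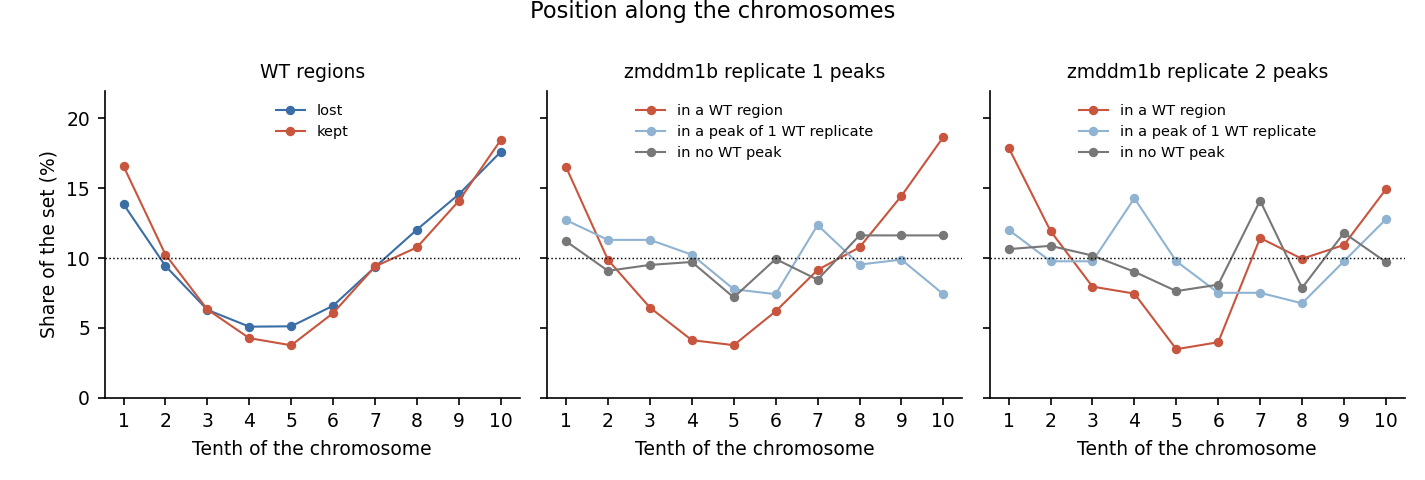
Percent of each set in the 10 equal parts of the chromosomes, summed over chromosomes; the dotted line at 10% is an even spread over length. Lost and kept WT regions and zmddm1b peaks in WT regions are depleted in the middle parts, and zmddm1b peaks in no WT peak stay between 7.19% and 14.1%.

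By chromosome the kept share varied little. It ran from 2.32% on chromosome 4 (99 of 4273 regions, 95% interval 1.89 to 2.81) to 3.12% on chromosome 9 (101 of 3239, 2.55 to 3.78), and these intervals overlap. Replicate 1 met from 2.04% on chromosome 4 to 2.91% on chromosome 8, and replicate 2 from 0.328% on chromosome 6 to 0.772% on chromosome 9. WT regions were densest on chromosome 1, at 22.4 per Mb, and sparsest on chromosome 4, at 17.3 per Mb. Zmddm1b peaks numbered 0.773 to 1.00 per Mb in replicate 1 and 0.264 to 0.445 in replicate 2. In replicate 1 the lowest density was on chromosome 4, as for WT regions, and in replicate 2 it was on chromosome 6.

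A few windows of 1 Mb held clusters of zmddm1b peaks on high background. In windows with any peak the median number was 1 in both libraries. On chromosome 4 from 230000001 to 231000000 there were 6 peaks in replicate 1 and 8 in replicate 2, none of them in a WT peak although the window held 18 WT regions, and 5 peaks of each met the other list. Their median fold was low, 2.13 and 2.54, and their median background was 84.3 and 63.5, where the lowest recurring background of these libraries was 2.42 and 2.58. On chromosome 1 from 30000001 to 31000000 replicate 2 had 5 peaks and replicate 1 had 3, with a median background of 42.3 in replicate 2. On chromosome 7 from 56000001 to 57000000 replicate 2 had 5 peaks and replicate 1 had 6, of which 4 of the replicate 2 peaks lay in WT regions, at a median background of 61.7. The fullest window of replicate 1 was unlike these: on chromosome 8 from 168000001 to 169000000 it had 7 peaks, 5 in WT regions, at a median background of 4.61, and replicate 2 had 1. Summits with a background of at least 10 times that lowest value made up 2.57% and 8.22% of the zmddm1b lists and 0.525% and 0.452% of the WT lists. The part of such summits in the peak numbers was not tested.

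Regions called in both zmddm1b libraries numbered 236, of which 131 lay in a WT region, 49 in a peak of 1 WT replicate and 56 in no WT peak. Of the 49, 35 met WT replicate 2 and 14 met WT replicate 1. Of the 56 without a WT peak, 19 (33.9%) were in a WT ZmDDM1A list and 2 (3.57%) in a WT ZmAGO4 list. Among all zmddm1b peaks in no WT peak, 4.44% in replicate 1 and 7.64% in replicate 2 were in a WT ZmDDM1A list. The shares in a WT ZmAGO4 list were 2.96% and 2.78%. The strongest of these 56 by the smaller fold, at 6538237 to 6538511 of chromosome 9, reached 10.4 and 8.50 and was also called in a WT ZmDDM1A list. The next, on chromosome 1 at 26658795 to 26659087 (7.97 and 9.71), chromosome 1 at 234188353 to 234188657 (7.16 and 7.01), chromosome 6 at 78066490 to 78066813 (7.34 and 7.01) and chromosome 2 at 45053967 to 45054248 (6.98 and 6.18), were in no list of the other antibodies. They lay 13768 to 50799 bp from the nearest WT region and were 282 to 324 bp wide. The highest fold outside WT peaks, 12.8 in replicate 2 on chromosome 5 at 80743356 to 80743632, was not called in replicate 1.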

How the data were processed

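The deposited lists give, for each peak of 1 library, start, end, summit, fold and significance. The fold is a ratio that the authors deposited, and p-values and q-values are deposited as −log10. Per the submitters' processing notes, the tools of the series include Trim Galore, Bowtie2, Picard and MACS2 2.1.2, with B73 RefGen_v4 as the build; their roles are not stated, and the settings of the caller were not given. The smallest −log10 q of the 4 lists is 2.01. Positions are printed counted from 1.

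Peaks that shared at least 1 bp were merged. Chromosome length was taken as the highest end among all lists. Pileup and background were recovered from fold, which was read as (pileup + 1) over (background + 1), together with the p-value under a Poisson law. Pileups came out whole within 0.01 for 99.997% and 99.991% of WT summits. In zmddm1b 9.63% and 1.31% did, so pileups were taken as scaled, 44.7% and 48.4% of summits had 1 solution, and the mean was used elsewhere. Depth is the lowest recurring background divided by the smallest peak width. In zmddm1b it is a depth after scaling. Code was tested on simulated data. Intervals are exact Clopper-Pearson 95% intervals, cover counting error only and treat neighbouring regions as independent. Work was done in Python 3.11.15 with scipy 1.17.1.

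Named regions follow a rule: the 5 kept regions highest in the smaller zmddm1b fold, the 5 highest in the smaller WT fold, lost regions ranked 1 to 10, the 3 widest of each, the 5 strongest regions of both zmddm1b libraries without a WT peak, the 3 highest peaks and the 3 fullest windows of each zmddm1b library. Of these, some are given by range or left out. The members and lists were chosen with earlier results of these data known. No genome of this build was used, so no sequence is shown.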

Additional observations from a re-analysis of the deposited data

How the results depend on the processing

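Of 66 alternatives for 8 results, 41 left the direction as it was or moved by less than the spread between replicates, 22 moved by more and 3 reversed. For fold and width that spread is tiny, so small shifts count as moves; tests of 2 against 2 libraries cannot pass 0.05. The log2 loss of peaks lay between −6.16 and −4.88 with any 1 library left out, the lowest without zmddm1b replicate 1. The kept share ran from 0.473% to 2.59% (0.473% without zmddm1b replicate 1) and was 0.309% with zmddm1b regions of both libraries. The log2 fold difference of kept and lost regions lay between 0.44 and 0.58 with any 1 library left out. It was 0.53 at −log10 q of at least 5, 0.36 with 50% coverage, 0.59 with zmddm1b regions of both libraries, 0.50 in the middle one of 3 width groups and 1.53 for −log10 q. The width difference ran from 0.14 to 0.64 and was 0.35 at the stricter q, −0.10 (reversed) with 50% coverage, 0.26 with regions of both libraries, 0.53 with the union of WT replicates and 0.071 in the middle one of 3 fold groups. The outer share difference ran from 0.127 to 4.15 points and was 0.131 with regions of both libraries and 0.781 with the union. The share of zmddm1b peaks in WT regions ran from 26.2% to 59.6%. The median fold difference, 0.05, turned to −0.023 without zmddm1b replicate 2 (range −0.023 to 0.11). It turned to −1.05 with lists of equal length, a cut that favours a higher fold in the longer WT lists. The width difference of the lists ran from −0.53 to −0.43. The causes were not tested.

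With the replicate block the log2 loss was −5.52 (exact sign-flip p = 0.5, n = 2 pairs, the smallest possible). At the 131 regions of all 4 libraries the fold deviations of same-numbered libraries correlated at −0.05. These regions had to be called in every list, so this value cannot tell whether the libraries were paired. Of the peaks called in WT replicate 2 alone, zmddm1b replicate 1 met 148 of 10040 and replicate 2 met 92. Of those called in WT replicate 1 alone they met 137 and 42 of 13091. Whether this reflects a pairing was not tested. Scaling WT to the depth worked out for zmddm1b, chosen after seeing the data, gave −5.38 and a kept share of 2.94%.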

Other observations

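The lists of the other mutant, zmddm1a with the ZmDDM1A antibody, met kept ZmDDM1B regions more often than lost ones. A zmddm1a peak of either library met 94 of the 1170 kept regions (8.03%, 95% interval 6.54 to 9.74) and 815 of the 41280 lost regions (1.97%, 1.84 to 2.11). By library the shares were 5.81% and 3.93% of the kept and 1.39% and 1.11% of the lost. Of the 131 regions kept by both zmddm1b libraries, 9 were met (6.87%, 3.19 to 12.6). Of the zmddm1b peaks in no WT ZmDDM1B peak, 4 of 473 in replicate 1 (0.846%) and 11 of 432 in replicate 2 (2.55%) were in a zmddm1a list. Over all zmddm1b peaks these were 92 of 1870 (4.92%) and 28 of 766 (3.66%). Kept regions were also stronger in WT, and the part of strength in this difference was not tested.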
